A study of Homo sapiens with 12 samples.

Results

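Transcript levels of 10 genes of the YAP and TEAD pathway were followed across sorted MIA PaCa-2 cells, a human pancreatic carcinoma line in wide laboratory use. The genes were taken by symbol from a table of 24528 genes, and all 10 were found: the coactivators YAP1 and WWTR1 (the gene of TAZ), the transcription factors TEAD1 and TEAD4, and the target genes CYR61, CTGF, AMOTL2, LATS2, ANKRD1 and AXL. Cells had been given lentiviral short hairpin RNAs (shRNAs) and were sorted for the fluorescent tag of the virus 72 hours after infection. There were 4 groups of 3 libraries each: an shRNA against MSI1 with a GFP-tagged virus (Msi1 knockdown), an shRNA against MSI2 with a Tomato Red-tagged virus (Msi2 knockdown), both viruses with sorting of cells positive for both tags (double knockdown), and a scrambled shRNA (control). Every group, control included, carried a lentiviral shRNA, and the tag of the control virus is not given in the sources used here. MSI1 and MSI2 encode the Musashi proteins, proteins that bind RNA and act on the translation and stability of target mRNAs.

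In the Hippo pathway the kinases STK3 and STK4, with their scaffold SAV1, activate LATS1 and LATS2, which phosphorylate YAP and TAZ and hold them in the cytoplasm. Unphosphorylated YAP and TAZ enter the nucleus, bind TEAD proteins and switch on genes such as CTGF and CYR61, which encode secreted matricellular proteins. AMOTL2 and LATS2 are targets that also restrain YAP, so that they form a feedback loop. YAP activity has been tied to growth and drug resistance in pancreatic carcinoma. RNA levels report on none of the phosphorylation steps.

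TEAD proteins recognise a short element, and 3 upstream sequences are shown because they hold exact copies of its core, GGAATG, set in capitals. The sequences are the 250 bases before the annotated gene start, 5′ to 3′ on the strand of the gene, from RefSeq on the build GRCh38.p14. The first, of CTGF (listed there as CCN2), lies at chr6:131951373-131951622 on the minus strand. That of ANKRD1 lies at chr10:90921088-90921337 on the minus strand, and that of YAP1 at chr11:102110197-102110446 on the plus strand.
CTGF: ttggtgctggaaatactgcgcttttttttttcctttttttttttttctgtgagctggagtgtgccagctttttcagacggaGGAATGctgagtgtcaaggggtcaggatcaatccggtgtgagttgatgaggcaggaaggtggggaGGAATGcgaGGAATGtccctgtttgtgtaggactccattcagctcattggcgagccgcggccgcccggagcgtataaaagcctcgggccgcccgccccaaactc
ANKRD1: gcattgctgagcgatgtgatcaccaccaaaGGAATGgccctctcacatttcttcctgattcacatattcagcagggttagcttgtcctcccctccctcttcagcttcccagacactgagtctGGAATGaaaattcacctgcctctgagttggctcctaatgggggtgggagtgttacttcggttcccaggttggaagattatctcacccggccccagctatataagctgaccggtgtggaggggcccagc
YAP1: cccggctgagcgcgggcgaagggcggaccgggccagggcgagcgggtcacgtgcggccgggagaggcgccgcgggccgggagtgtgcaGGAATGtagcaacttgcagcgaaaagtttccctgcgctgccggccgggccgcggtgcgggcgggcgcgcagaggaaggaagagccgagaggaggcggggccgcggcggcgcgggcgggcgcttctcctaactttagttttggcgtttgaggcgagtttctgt

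Matches of GGAATG began 169, 104 and 95 bases before the start of CTGF, 220 and 128 bases before that of ANKRD1 and 162 bases before that of YAP1. The search covered both strands, on which the element reads GGAATG or CATTCC. RefSeq windows were at hand for 7 of the 10 genes, with 10 windows in all since AMOTL2, WWTR1 and AXL had a second start. Besides the 3 genes shown, 1 window of AMOTL2 and 1 of AXL held a single CATTCC, and no window of WWTR1 or LATS2 held either form. Of all 35116 windows of the same length, 11.9% held at least 1 match and 0.0826% held 3 or more, as that of CTGF did. A match describes the letters of a window and is not a measured binding site.

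The libraries held 26.8 to 38.9 under Msi1 knockdown, 39.7 to 53.0 under Msi2 knockdown, 39.9 to 56.1 under double knockdown and 10.9 to 35.0 in control, in 1e6 estimated counts. Levels are given as CPM, counts per 1e6 of the scaled library total, and changes on the log2 scale with their standard errors, the changes from edgeR's quasi-likelihood fit to all 12 libraries. A change was called at an adjusted p under 0.05 over 15021 tested genes. The labels do not say whether replicates were separate cultures. The p-values thus measure the spread between these samples only, which may be technical. MSI1 averaged 1.84, 6.14, 1.71 and 4.53 CPM under Msi1, Msi2 and double knockdown and in control, and MSI2 averaged 54.0, 14.97, 11.8 and 82.7 CPM in the same groups. Each target was lower with its shRNA, and MSI2 was also lower with the Msi1 shRNA alone (log2 -0.61). MSI1 was called higher with the Msi2 shRNA alone, at 0.41 ± 0.13 (edgeR adjusted p = 0.0244); that call was lost without Msi2 knockdown replicate 1 (0.31, adjusted p = 0.121), control replicate 2 (0.38, 0.0796) or control replicate 3 (0.36, 0.0717) and with thinned libraries (0.06, 0.828). Of the markers fixed for the line, KRT8, KRT18 and VIM averaged at least 1169 CPM in every group, and CDH1, EPCAM and CDKN2A, known to be low or absent in these cells, averaged at most 0.613 CPM. Of 7 fibroblast markers COL1A2 and COL3A1 made up nearly all of the sum, which ran from 660 to 804 CPM under Msi1 knockdown, 776 to 887 under Msi2 knockdown, 549 to 642 under double knockdown and 603 to 739 in control, while COL1A1, DCN, LUM, PDGFRA and PDGFRB each averaged at most 1.61 CPM in every group. COL3A1 rose by 0.77, 0.70 and 0.37 under Msi1, Msi2 and double knockdown (edgeR adjusted p = 3.4e-06, 1.8e-05 and 0.00332). COL1A2 changed by -0.25 (adjusted p = 0.0277), 0.04 (0.751) and -0.49 (1.1e-04) in the same order, with the call under Msi1 knockdown lost without control replicates 1 and 2 (0.0541 and 0.148) or Msi1 knockdown replicate 1 (0.107), and DCN by -0.43 (0.184), -1.16 (0.00197) and -1.53 (1.2e-04). Summed blood cell markers came to at most 1.16 CPM and summed acinar markers to at most 0.109 CPM in every library. Summed endothelial markers, of which CDH5 was the largest, ran from 27.5 to 34.5, 13.1 to 13.6, 20.4 to 22.9 and 7.23 to 8.36 CPM under Msi1, Msi2 and double knockdown and control. CDH5 alone averaged 30.5 ± 3.9, 12.38 ± 0.26 and 20.7 ± 1.2 CPM under Msi1, Msi2 and double knockdown and 6.42 ± 0.45 CPM in control (SD, n = 3), and rose by 2.27, 0.97 and 1.71 (edgeR adjusted p = 4.6e-12, 9.7e-07 and 1.7e-10). No rise of another endothelial marker was called: PECAM1 averaged 0.771, 0.623, 0.553 and 0.888 CPM in the same groups, VWF at most 0.354 CPM and KDR, too low to be tested, at most 0.17 CPM. PECAM1 was called lower under double knockdown (-0.69, adjusted p = 0.0298), a call lost under 8 of 14 alternatives. Among these were leaving out double knockdown replicate 1 (0.0896), double knockdown replicate 2 (0.0633) or control replicate 1 (0.174). Others were thinned libraries (0.118) and adjustment for the library trend described below (-0.81, 0.0791). The part of these markers in the results was not tested. A trend present within groups also separated libraries, with scores of -1.55 to -1.05 under double knockdown and -0.39 to 1.38 in the other 9 libraries, and it is named below where it moves a call.

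All 9 tested genes were counted well above the filter, with at least 58 counts in each library. ANKRD1, a cardiac ankyrin repeat protein and a classical YAP target, was the exception among the 10. It had 4, 3 and 9 counts in the Msi1 knockdown libraries, 2, 3 and 7 under Msi2 knockdown, 6, 5 and 6 under double knockdown and 1, 7 and 2 in control. These 55 counts in all are too few for a change to be detectable at this depth, and the gene did not pass the low-count filter. A fit without the filter gave it log2 changes of 0.26 ± 0.69, -0.64 ± 0.72 and -0.05 ± 0.69 under Msi1, Msi2 and double knockdown, none called (edgeR adjusted p = 0.862, 0.629 and 0.992).

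Divided by the length of the longest GENCODE transcript, control levels were highest for CYR61, at 70.3 ± 7.1 CPM per kilobase, and WWTR1, at 61.8 ± 1.8 (SD, n = 3). YAP1, AXL and TEAD4 followed at 27.3 ± 2.0, 26.5 ± 2.6 and 24.8 ± 0.2 CPM per kilobase, and the ranges of neighbours among these overlapped. AMOTL2 stood at 23.7 ± 0.5, TEAD1 at 14.3 ± 0.8, LATS2 at 8.65 ± 0.25, CTGF at 2.63 ± 0.42 and ANKRD1 at 0.0737 ± 0.053 CPM per kilobase, each below the whole range of the gene before it. Among 14897 tested genes with a known length, CYR61 lay at percentile 95.2, WWTR1 at 94.4, YAP1 at 85.7 and CTGF at 36.2. The matricellular pair thus differed widely in level in these cells, with CYR61 among the most abundant transcripts and CTGF in the lower part of the range.

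**Figure D1:**
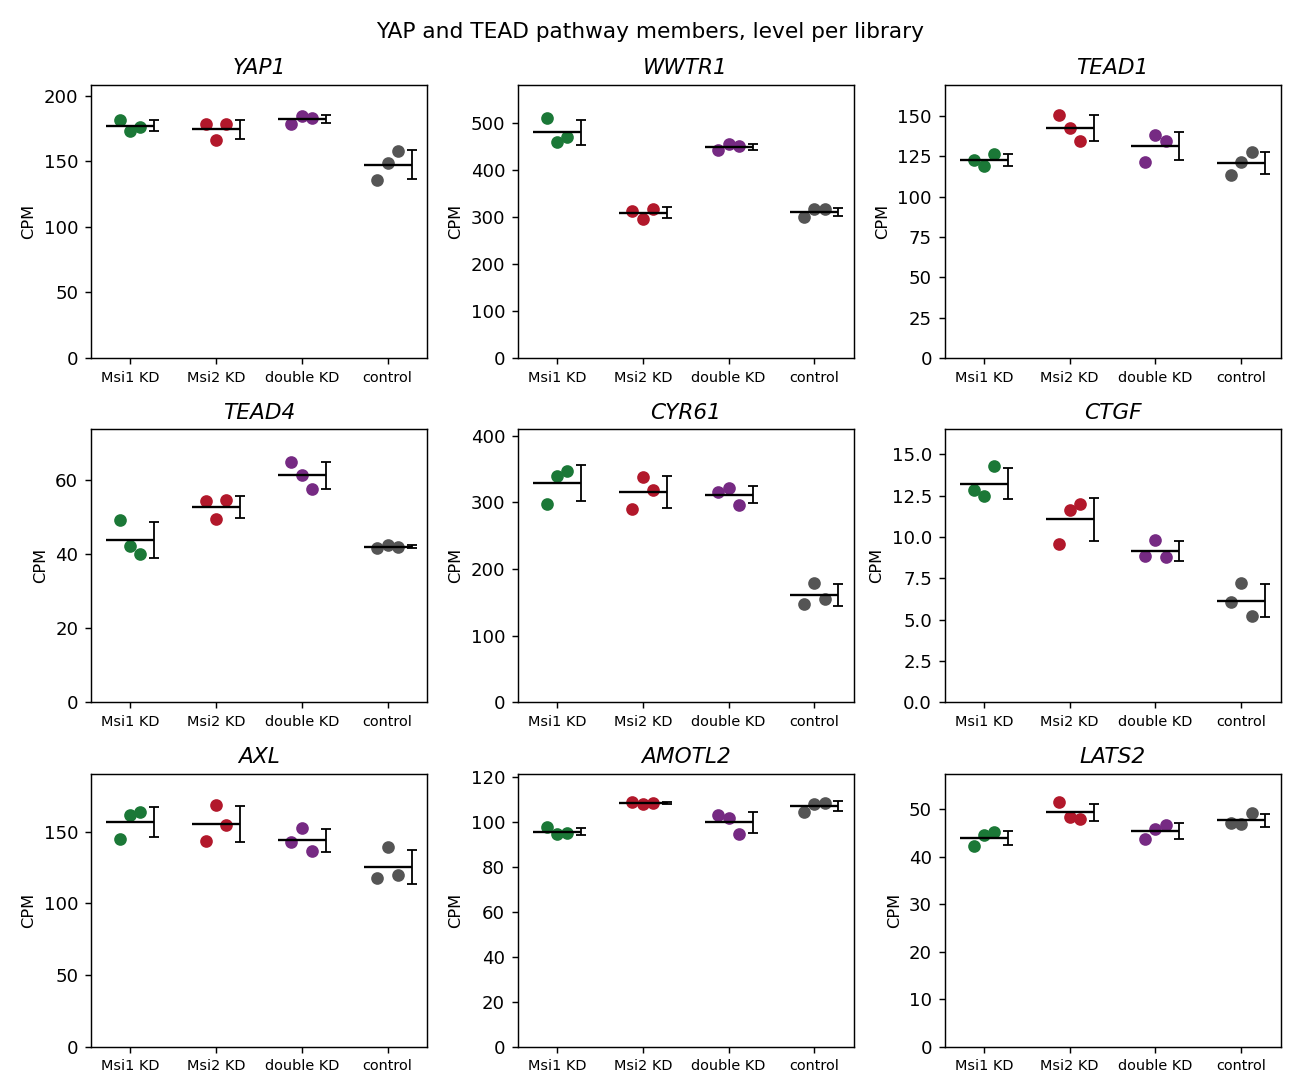
Level of 9 genes in CPM (y axis, starting at 0) in each of the 12 libraries, with groups along the x axis; points are libraries, horizontal lines are group means and bars show the SD of 3 libraries. CYR61 lies between 290 and 347 CPM in the knockdown libraries and between 148 and 179 CPM in control, whereas WWTR1 is high under Msi1 and double knockdown alone.

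Of the coactivators, YAP1 rose in every knockdown and WWTR1 in those with the Msi1 shRNA. YAP1 stood at 182, 173 and 177 CPM under Msi1 knockdown, 178, 166 and 179 CPM under Msi2 knockdown, 179, 185 and 183 CPM under double knockdown, and 136, 149 and 158 CPM in control. Each knockdown library lay above each control library. The changes of YAP1 came to 0.27 ± 0.06, 0.25 ± 0.06 and 0.31 ± 0.06 (edgeR adjusted p = 0.0019, 0.00501 and 3.8e-04), a rise of 1.2-, 1.19- and 1.24-fold. The call under Msi2 knockdown was lost without control replicate 1 (log2 0.18, adjusted p = 0.081).

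WWTR1 stood at 511, 459 and 470 CPM under Msi1 knockdown, 313, 296 and 317 CPM under Msi2 knockdown, 441, 455 and 450 CPM under double knockdown, and 300.3, 316 and 316 CPM in control. The libraries given the Msi1 shRNA lay apart from the rest, while those of the Msi2 knockdown overlapped control. It rose by 0.63 ± 0.06 under Msi1 knockdown (edgeR adjusted p = 2.4e-07) and by 0.53 ± 0.06 under double knockdown (adjusted p = 1.5e-06). With the Msi2 shRNA alone the change was -0.01, with a 95% interval of -0.14 to 0.12. An antisense transcript, WWTR1-AS1, shares 795 exonic bases with WWTR1, and its counts came to 0.238% of those of WWTR1. Antisense genes also share 628 exonic bases with YAP1, 195 with CTGF and 67 with AXL. A pseudogene on the same strand shares 187 with AMOTL2. No counts were at hand for these other overlapping genes, and the strand setting of the counting is not given in the sources used here.

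A ratio of 2 genes within a library does not depend on how libraries are scaled. The ratio of WWTR1 to YAP1 counts was 2.71 ± 0.09 under Msi1 knockdown, 1.77 ± 0.01 under Msi2 knockdown, 2.46 ± 0.01 under double knockdown and 2.11 ± 0.10 in control (SD, n = 3). The ranges of the 4 groups did not overlap, from 2.65 to 2.81, 1.76 to 1.78, 2.46 to 2.47 and 2.00 to 2.21 in the same order. The balance of the paralogs therefore lay toward WWTR1 with the Msi1 shRNA and toward YAP1 with the Msi2 shRNA alone.

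**Figure D2:**
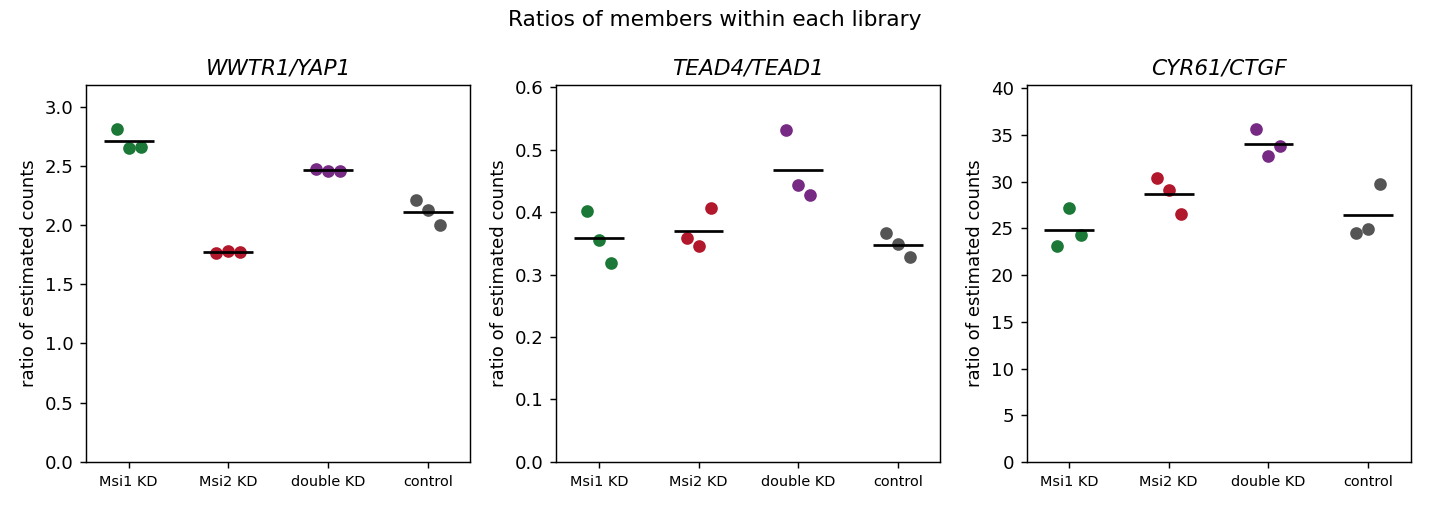
Ratio of estimated counts of WWTR1 to YAP1, TEAD4 to TEAD1 and CYR61 to CTGF within each library (y axes start at 0, no unit), with groups along the x axis, points for libraries and lines for group means. The WWTR1 to YAP1 ratio separates all 4 groups, and the other ratios are highest under double knockdown, at 0.468 and 34.1 on average.

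The TEAD genes encode the DNA-binding partners of YAP and TAZ. TEAD4 stood at 49.2, 42.3 and 40.1 CPM under Msi1 knockdown, 54.2, 49.4 and 54.7 CPM under Msi2 knockdown, 64.8, 61.4 and 57.5 CPM under double knockdown, and 41.7, 42.5 and 41.8 CPM in control. All libraries with the Msi2 shRNA lay above control, and those of the double knockdown highest. TEAD4 rose by 0.33 ± 0.07 under Msi2 knockdown (edgeR adjusted p = 0.00233) and by 0.54 ± 0.07 under double knockdown (adjusted p = 7.2e-06). The Msi1 knockdown gave 0.06 ± 0.08 (adjusted p = 0.536), and 0.17 (adjusted p = 0.0269) after adjustment for the library trend.

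TEAD1 stood at 123, 119 and 126 CPM under Msi1 knockdown, 151, 143 and 134 CPM under Msi2 knockdown, 122, 138 and 134 CPM under double knockdown, and 114, 122 and 127 CPM in control. The Msi2 knockdown libraries lay above control, and the other knockdowns overlapped it. Its rise under Msi2 knockdown, 0.24 ± 0.07 (edgeR adjusted p = 0.00912), was lost without Msi2 knockdown replicate 1 (0.20, adjusted p = 0.0715) or control replicate 1 (0.19, adjusted p = 0.0952). In the double knockdown the change was 0.12 ± 0.07 (adjusted p = 0.127), called without double knockdown replicate 1 (0.18, adjusted p = 0.0449) and with a correction for GC content and transcript length (0.30, adjusted p = 6.3e-04). The ratio of TEAD4 to TEAD1 counts ran from 0.318 to 0.402 under Msi1 knockdown, 0.346 to 0.407 under Msi2 knockdown, 0.428 to 0.532 under double knockdown and 0.328 to 0.367 in control, so the double knockdown lay above all other libraries. The longest transcripts of TEAD4 and TEAD1 differ in length (1690 and 8477 bases) and GC content (60.4% and 41.3%). The part of these in the ratio was not tested. After adjustment for the library trend TEAD4 stood at 0.36 (edgeR adjusted p = 1.7e-04) and TEAD1 at 0.17 (0.0584) under double knockdown.

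CYR61 and CTGF had the largest rises of the 9 genes under Msi1 and Msi2 knockdown. CYR61 (also named CCN1) stood at 298, 340.1 and 347 CPM under Msi1 knockdown, 290.4, 338 and 319 CPM under Msi2 knockdown, 316, 322 and 297 CPM under double knockdown, and 148, 179 and 155 CPM in control. Every knockdown library lay far above every control library, and the knockdowns overlapped each other. The log2 changes were 1.03 ± 0.08, 0.97 ± 0.08 and 0.95 ± 0.08, or 2.04-, 1.96- and 1.93-fold (edgeR adjusted p = 1.0e-08, 6.4e-08 and 2.8e-08). Under 15 alternatives for each knockdown these changes ran from 0.89 to 1.13 and stayed called.

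CTGF (also named CCN2) stood at 12.9, 12.5 and 14.3 CPM under Msi1 knockdown, 9.56, 11.6 and 11.99 CPM under Msi2 knockdown, 8.84, 9.82 and 8.79 CPM under double knockdown, and 6.05, 7.19 and 5.21 CPM in control, on 58 to 623 counts per library. All knockdown libraries lay above control, and those of the Msi1 knockdown lay above the other knockdowns. CTGF rose by 1.06 ± 0.11 under Msi1 knockdown, 0.81 ± 0.11 under Msi2 knockdown and 0.53 ± 0.11 under double knockdown (edgeR adjusted p = 4.6e-07, 2.0e-05 and 6.7e-04). The ratio of CYR61 to CTGF counts was 24.9 ± 2.1, 28.7 ± 1.9 and 34.1 ± 1.5 under Msi1, Msi2 and double knockdown and 26.4 ± 2.9 in control, and the double knockdown lay above all other libraries.

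AXL encodes a receptor tyrosine kinase bound by GAS6. It stood at 145, 161 and 164 CPM under Msi1 knockdown, 144, 168 and 155 CPM under Msi2 knockdown, 143, 152 and 137 CPM under double knockdown, and 117, 139 and 119 CPM in control. The single knockdowns lay above control, while the double knockdown overlapped it through control replicate 2. AXL rose by 0.32 ± 0.08 and 0.31 ± 0.08 under Msi1 and Msi2 knockdown (edgeR adjusted p = 0.00272 and 0.00475), and the change under Msi1 knockdown was 0.21 (0.00461) after adjustment for the library trend. Its call under double knockdown, 0.20 ± 0.08 (adjusted p = 0.0389), was lost without double knockdown replicate 1 (0.21, 0.0741), double knockdown replicate 2 (0.14, 0.197), control replicate 1 (0.15, 0.172) or control replicate 3 (0.16, 0.151), with a stricter filter (0.17, 0.0904) and with thinned libraries (0.13, 0.199). After adjustment for the library trend it was 0.37 (adjusted p = 9.5e-05).

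The feedback genes did not follow CYR61 and CTGF. AMOTL2, an angiomotin that binds YAP, stood at 97.8, 94.7 and 94.99 CPM under Msi1 knockdown, 109, 108 and 108 CPM under Msi2 knockdown, 103, 102 and 94.6 CPM under double knockdown, and 105, 108 and 109 CPM in control. The Msi1 and double knockdown libraries lay slightly below control. AMOTL2 was called lower under Msi1 knockdown at -0.16 ± 0.06 (edgeR adjusted p = 0.0274), and 8 of 15 alternatives lost the call, among them leaving out any 1 of control replicates 1, 2 and 3 (adjusted p = 0.0599, 0.0678 and 0.0927) or Msi1 knockdown replicates 2 and 3 (0.107 and 0.125). The intervals under Msi2 and double knockdown were -0.10 to 0.14 and -0.21 to 0.02, and the second was called with a stricter filter (-0.13, adjusted p = 0.0385). With the correction for GC content and length the change under double knockdown was -0.01 and was not called.

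LATS2, a kinase that inactivates YAP and TAZ, stood at 42.4, 44.6 and 45.1 CPM under Msi1 knockdown, 51.5, 48.5 and 48.0 CPM under Msi2 knockdown, 43.6, 45.9 and 46.8 CPM under double knockdown, and 47.0, 46.8 and 49.3 CPM in control. No change in LATS2 against control passed, with intervals of -0.24 to 0.01, -0.07 to 0.18 and -0.19 to 0.06 under Msi1, Msi2 and double knockdown. These intervals leave out a change of the size seen for CYR61. The ratio of CYR61 to AMOTL2 counts was 3.43 ± 0.34, 2.91 ± 0.24 and 3.12 ± 0.05 under Msi1, Msi2 and double knockdown, against 1.5 ± 0.14 in control (SD, n = 3).

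**Figure D3:**
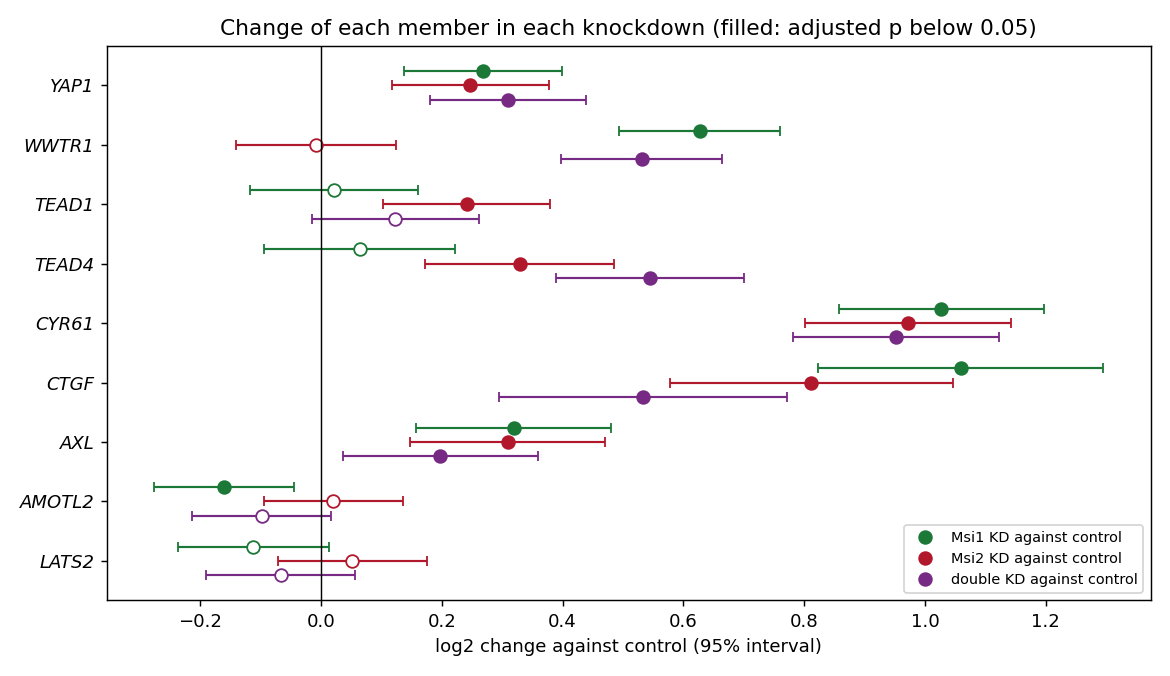
Log2 change against control (x axis) with its 95% interval for 9 genes (rows) under Msi1, Msi2 and double knockdown, all of which share the 3 control libraries; filled points passed the adjusted threshold of 0.05. CYR61 sits near 1 in every knockdown, WWTR1 near 0 under Msi2 knockdown, and AMOTL2 and LATS2 close to 0 throughout.

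In the Msi1 knockdown 5 of the 9 tested genes rose, 1 fell and 3 did not pass, where 39.3% of all tested genes were called, 18.5% higher and 20.9% lower. In the Msi2 knockdown 6 rose, 0 fell and 3 did not pass, against 30.3% of all genes called, 16.7% higher and 13.6% lower. Without control replicate 1, 4 rose, and the called genes over all tested genes also fell, to 3013 from 4545. In the double knockdown 6 rose, 0 fell and 3 did not pass, against 51.9% called, 26.6% higher and 25.3% lower. The median log2 change of the 9 genes was 0.27, 0.25 and 0.31 under Msi1, Msi2 and double knockdown, while that of all tested genes lay between -0.02 and 0. Libraries did not overlap control for 5 higher and 2 lower genes under Msi1 knockdown (22.7% and 24.4% of all genes), 6 higher and 0 lower under Msi2 knockdown (20.8% and 17.9%), and 5 higher and 2 lower under double knockdown (30.8% and 28.9%). The 3 comparisons share their control libraries. YAP1, CYR61, CTGF and AXL were called higher in all of them, as were 6.08% of tested genes. The pattern of WWTR1, called higher under Msi1 and double knockdown and not under Msi2 knockdown, was shared by 3.78% of tested genes, and that of TEAD4, called higher under Msi2 and double knockdown and not under Msi1 knockdown, by 4.29%. Because RNA was taken from pools of sorted cells, fewer cells with a transcript and less of it per cell cannot be told apart.

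The knockdowns were also compared with each other. Between the double and a single knockdown, the second shRNA came together with a second virus and a sort for both tags. The Msi1 and Msi2 knockdowns differed in both shRNA and tag. The part of the virus and the sort was not tested. When the double was set against the Msi1 knockdown, 1 of 9 genes was higher and 1 lower, where 29.9% of all genes were called higher and 26.2% lower (56% in all). TEAD4 was higher by 0.48 ± 0.07 (edgeR adjusted p = 3.5e-05), at 61.2 ± 3.7 CPM under double knockdown and 43.8 ± 4.8 CPM under Msi1 knockdown. CTGF was lower, with a change of -0.53 ± 0.10 (adjusted p = 2.8e-04), at 9.15 ± 0.58 CPM under double knockdown and 13.2 ± 0.9 CPM under Msi1 knockdown. Both calls were lost after adjustment for the library trend, which sets the double knockdown apart (0.20, adjusted p = 0.26, and -0.42, 0.145), while with the correction for GC content and length 5 genes passed. Over all tested genes 759 were called with the trend adjustment, in place of 8419. With the GC and length correction 63.1% of all called genes were higher, in place of 53.3%.

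Against the Msi2 knockdown, 3 genes passed under double knockdown, 2 higher and 1 lower, where 22.7% of all genes were called higher and 22.5% lower (45.2% in all). WWTR1 was higher by 0.54 ± 0.06 (edgeR adjusted p = 3.5e-06), at 449 ± 7 CPM under double knockdown and 309 ± 11 CPM under Msi2 knockdown, and this difference stayed between 0.45 and 0.62 under 15 alternatives. TEAD4 was higher by 0.22 ± 0.07 (adjusted p = 0.0189) and CTGF lower, with a change of -0.28 ± 0.10 (adjusted p = 0.0278). The TEAD4 call was lost under 6 of 15 alternatives, among them leaving out Msi2 knockdown replicate 2 (adjusted p = 0.112), double knockdown replicate 1 (0.102) or double knockdown replicate 2 (0.0595), and the CTGF call under 7, among them leaving out Msi2 knockdown replicate 2 (0.0785), Msi2 knockdown replicate 3 (0.102), double knockdown replicate 1 (0.104) or double knockdown replicate 3 (0.0797). After adjustment for the library trend both calls were lost, with TEAD4 at 0.01 (edgeR adjusted p = 0.943) and CTGF at -0.21 (0.298). Of the 9 genes, 1 passed with thinned libraries, 1 after adjustment for the library trend and 5 with a stricter filter. Leaving out Msi2 knockdown replicate 2 or double knockdown replicate 1 left 1 of the 9 genes called. Over all tested genes the count moved as well, from 6792 to 2787 after adjustment for the library trend and to between 5058 and 7185 with 1 library left out. Under all 15 alternatives it ran from 2787 to 7304.

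In the Msi2 against the Msi1 knockdown, 4 genes were higher and 1 lower, where 22.3% of all genes were called higher and 18.9% lower (41.1% in all). WWTR1 was lower, with a change of -0.64 ± 0.06 (edgeR adjusted p = 2.0e-07), and TEAD4, TEAD1, AMOTL2 and LATS2 were higher by 0.26 ± 0.07, 0.22 ± 0.07, 0.18 ± 0.05 and 0.16 ± 0.06 (adjusted p = 0.00654, 0.0111, 0.0124 and 0.0292). Leaving out 1 library at a time left 4841 to 6393 of all tested genes called, in place of 6181, and between 2 and 6 of the 9 genes. The count was 3 without Msi1 knockdown replicate 2 and 2 without Msi1 knockdown replicate 3 or Msi2 knockdown replicate 1, and the LATS2 call was lost in 9 of 15 alternatives, among them leaving out any 1 of Msi1 knockdown replicates 1, 2 and 3 (adjusted p = 0.0934, 0.0896 and 0.0791) or Msi2 knockdown replicate 1 (0.173). TEAD4 lost its call without Msi1 knockdown replicate 3 (0.0791), TEAD1 without Msi1 knockdown replicate 2 (0.0756) or Msi2 knockdown replicate 1 (0.104), and AMOTL2 without Msi1 knockdown replicates 2 and 3 (0.0771 and 0.0815) or Msi2 knockdown replicate 1 (0.0599). CTGF stood at -0.25, with an interval of -0.45 to -0.04, and did not pass (adjusted p = 0.0507), but 7 of 15 alternatives called it, among them leaving out Msi1 knockdown replicate 2 (-0.30, adjusted p = 0.0476), Msi2 knockdown replicate 2 (-0.29, 0.037) or Msi2 knockdown replicate 3 (-0.30, 0.031). CYR61 differed by -0.08, -0.02 and -0.06 between the double and Msi1, double and Msi2, and Msi2 and Msi1 knockdowns, with intervals of -0.24 to 0.09, -0.19 to 0.15 and -0.22 to 0.11.

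Whether the single changes added up was asked by setting the change under double knockdown beside their sum. CYR61 changed by 0.95 under double knockdown, where the single changes summed to 2.00, so that non-additivity was -1.05 ± 0.11 (edgeR adjusted p = 4.1e-06). For CTGF the change under double knockdown was 0.53 and the sum 1.87, a non-additivity of -1.34 ± 0.15 (adjusted p = 5.7e-06). AXL changed by 0.20 beside a sum of 0.63, a non-additivity of -0.43 ± 0.11 (adjusted p = 0.00464) that was -0.12 (adjusted p = 0.671) after adjustment for the library trend. So adjusted, CYR61 stood at -0.73 (adjusted p = 1.8e-04) and CTGF at -1.22 (1.9e-04). YAP1 stood at -0.21 (adjusted p = 0.0662), called without Msi2 knockdown replicate 2 (-0.25, 0.0428) or control replicate 3 (-0.27, 0.0335). With it 6 genes did not pass, where 40.3% of all tested genes did, 21.3% with a positive and 19.1% with a negative value. WWTR1 changed by 0.53 under double knockdown beside a sum of 0.62, with an interval of non-additivity from -0.27 to 0.10, and TEAD4 by 0.54 beside 0.39, with an interval from -0.07 to 0.37, called without Msi1 knockdown replicate 1 (0.24, adjusted p = 0.0384).

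**Figure D4:**
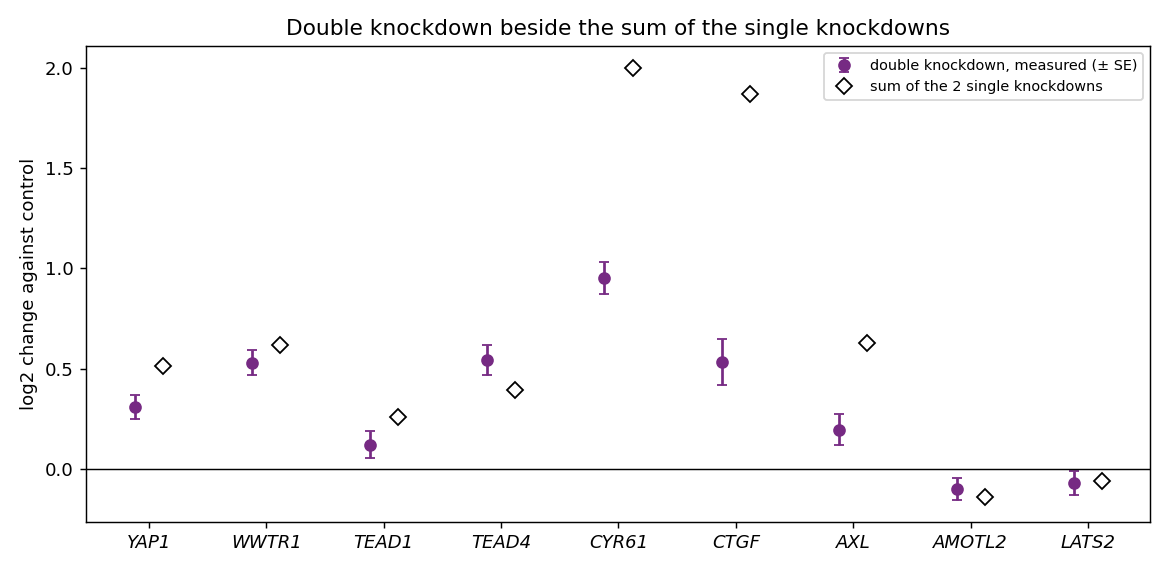
Log2 change against control (y axis) of 9 genes under double knockdown (filled points, ± SE) and the sum of their changes under Msi1 and Msi2 knockdown (open diamonds). CYR61, CTGF and AXL fall short of the sum, by 1.05, 1.34 and 0.43 on the log2 scale. The departure from the sum is -0.087 for WWTR1 and 0.152 for TEAD4, neither called.

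Of 33 other Hippo core and regulator genes, 30 were tested, AMOT, VGLL1 and CSNK1E being near or at 0. SAV1, the scaffold that activates STK3 and STK4, fell in each knockdown, with 22.9, 20.3 and 18.7 CPM under Msi1 knockdown, 16.9, 14.7 and 16.8 CPM under Msi2 knockdown, 14.9, 16.5 and 17.2 CPM under double knockdown, and 35.4, 29.3 and 31.3 CPM in control. All knockdown libraries lay below control. The log2 changes of SAV1 came to -0.63 ± 0.09, -0.99 ± 0.09 and -0.99 ± 0.09 (edgeR adjusted p = 1.6e-05, 1.5e-07 and 6.0e-08). VGLL4, which competes with YAP for TEAD, changed by -0.31 ± 0.09, -0.75 ± 0.09 and -0.55 ± 0.09 (adjusted p = 0.0102, 5.4e-06 and 5.9e-05), and the angiomotin AMOTL1 by -0.47 ± 0.07, -0.29 ± 0.06 and -0.42 ± 0.07 (adjusted p = 1.2e-05, 0.00226 and 2.9e-05). The VGLL4 call under Msi1 knockdown was lost without Msi1 knockdown replicate 3 (-0.27, adjusted p = 0.0507), control replicate 1 (-0.26, 0.0884) or control replicate 3 (-0.22, 0.0716), with thinned libraries (-0.25, 0.0599) and after adjustment for the library trend (-0.16, 0.0714).

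In the Msi1 knockdown 6 of these 30 genes rose, 6 fell and 18 did not pass (20% higher and 20% lower, beside 18.5% and 20.9% of all genes). The other large fall was in NF2, the tumour suppressor merlin that acts upstream of LATS1 and LATS2, at 127 ± 3 CPM under Msi1 knockdown and 205 ± 9 CPM in control (log2 -0.69 ± 0.06, edgeR adjusted p = 3.4e-08). NF2 stood at -0.05 and 0.003 on the log2 scale under Msi2 and double knockdown, neither called. The largest called rises were those of the protocadherin FAT1 (0.66 ± 0.17, and 0.33 after adjustment for the library trend), RASSF1 (0.48 ± 0.10), FRMD6 (0.46 ± 0.06) and LIMD1 (0.36 ± 0.06). In the Msi2 knockdown 9 rose, 6 fell and 15 did not pass (30% and 20%, beside 16.7% and 13.6%), with the called rises largest in PTPN14 (0.33 ± 0.07), the kinase STK3 (0.32 ± 0.07), TEAD2 (0.30 ± 0.07) and TEAD3 (0.29 ± 0.08), and TAOK2 (-0.26 ± 0.07) the fourth fall. In the double knockdown 7 rose, 5 fell and 18 did not pass (23.3% and 16.7%, beside 26.6% and 25.3%). The kinase YES1, from which YAP takes its name, rose by 0.49 ± 0.07, RASSF1 by 0.46 ± 0.10, FRMD6 by 0.46 ± 0.06 and WWC1 (KIBRA) by 0.43 ± 0.07, and the protocadherin FAT4 changed by -0.73 ± 0.14. With the correction for GC content and length, 23 of the 30 genes passed under double knockdown, 18 of them higher, and RASSF1 stood at 0.30, still called. That correction also moved all called genes under double knockdown, of which 58.8% were then higher in place of 51.2%. All called genes numbered 5805 to 8243 under the 15 alternatives, in place of 7796. The FAT4 call was lost after adjustment for the library trend (-0.37, adjusted p = 0.0621), and the AMOTL1 change there was -0.25 with the GC and length correction. The median log2 change of the list was 0.05, 0.05 and 0.11 under Msi1, Msi2 and double knockdown, beside -0.002, -0.002 and -0.015 over all tested genes.

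The other 16 genes of a published YAP and TAZ target signature were looked at, of which 14 were tested; PTPN14 stands in both lists. In the Msi1 knockdown 7 rose, 1 fell and 6 did not pass (50% higher and 7.14% lower, beside 18.5% and 20.9% of all tested genes). Under Msi2 knockdown 6 rose, 0 fell and 8 did not pass (42.9% higher, beside 16.7% higher and 13.6% lower). Under double knockdown 7 rose, 5 fell and 2 did not pass (50% and 35.7%, beside 26.6% and 25.3%). Median log2 changes were 0.27, 0.16 and 0.18, beside -0.002, -0.002 and -0.015 over all tested genes. NUAK2, a kinase of the AMPK family, stood at 8.996, 8.938 and 8.933 CPM under Msi1 knockdown, 8.18, 8.69 and 8.35 CPM under Msi2 knockdown, 11.8, 12.7 and 11.4 CPM under double knockdown, and 4.46, 5.45 and 5.57 CPM in control. The groups with an shRNA against a Musashi gene lay above control, and the double knockdown highest. It rose by 0.82 ± 0.10, 0.73 ± 0.10 and 1.24 ± 0.09 (edgeR adjusted p = 1.9e-06, 1.2e-05 and 5.8e-09), and FJX1 by 0.64 ± 0.07, 0.60 ± 0.07 and 0.82 ± 0.07 (1.4e-06, 5.7e-06 and 4.8e-08).

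F3, the tissue factor of coagulation, rose by 1.402 ± 0.174 under Msi1 and 0.60 ± 0.18 under double knockdown (edgeR adjusted p = 2.9e-06 and 0.00921), and its interval under Msi2 knockdown was -0.40 to 0.38. The stress gene GADD45A rose by 0.71 ± 0.12 and 0.96 ± 0.12 under Msi1 and double knockdown. NT5E, the ecto-nucleotidase CD73, rose by 0.63 ± 0.08, 0.56 ± 0.08 and 0.42 ± 0.08 under Msi1, Msi2 and double knockdown (adjusted p = 3.2e-06, 2.3e-05 and 1.7e-04), and CCDC80 by 0.53 ± 0.07, 0.35 ± 0.07 and 0.24 ± 0.07 (7.9e-06, 9.8e-04 and 0.00807). MYOF, a ferlin of the plasma membrane, fell under Msi1 and double knockdown, with changes of -0.28 ± 0.07 and -0.26 ± 0.07 (adjusted p = 0.00293 and 0.00415); the call under double knockdown was lost with the GC and length correction (-0.12, 0.141). Under Msi2 knockdown MYOF stood at 0.12 (0.199). In the double knockdown the largest falls were those of RBMS3 (-0.56 ± 0.22, adjusted p = 0.0371), ARHGEF17 (-0.44 ± 0.09, 3.1e-04), DOCK5 (-0.35 ± 0.09, 0.00391) and CRIM1 (-0.35 ± 0.09, 0.00207). The calls of DOCK5 and CRIM1 were lost after adjustment for the library trend (-0.06, adjusted p = 0.578, and -0.11, 0.189), and ARHGEF17 then stood at -0.18 (0.0445). With the GC and length correction DOCK5 lost its call (-0.17, 0.0522). That of RBMS3, a transcript of 1.01 ± 0.05 CPM under double knockdown and 1.52 ± 0.20 CPM in control, was lost without double knockdown replicate 1 (-0.52, 0.0997), double knockdown replicate 2 (-0.58, 0.0632), control replicate 2 (-0.48, 0.144) or control replicate 3 (-0.54, 0.0628), with DESeq2 (-0.56, 0.0825), with thinned libraries (-0.76, 0.0696), after adjustment for the trend (-0.22, 0.583) and with the GC and length correction (-0.37, 0.144).

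**Figure D5:**
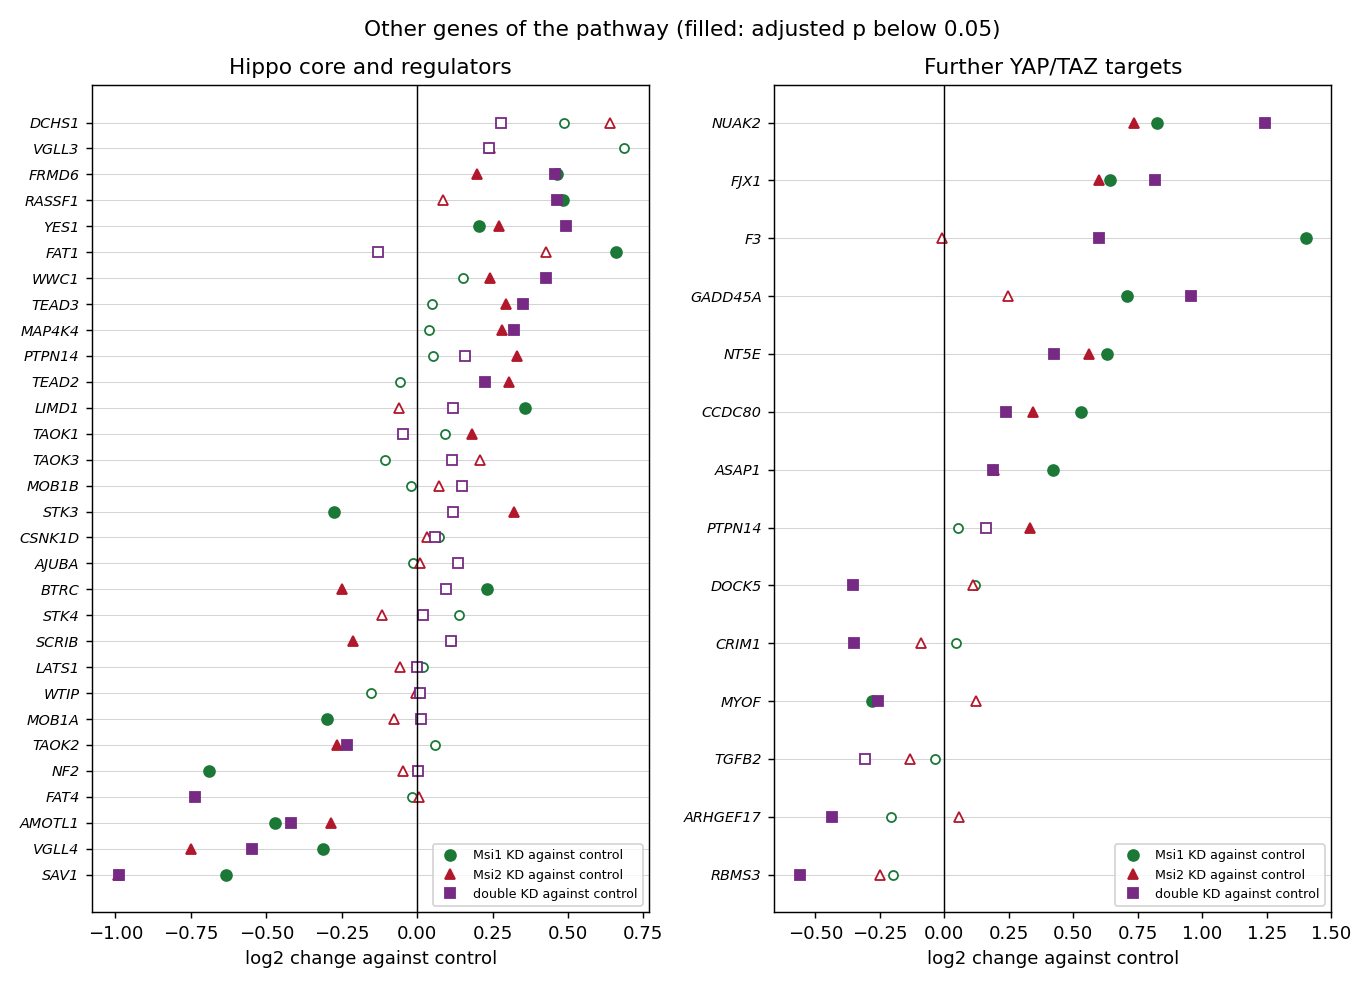
Log2 change against control (x axis) of 30 Hippo core and regulator genes (left) and 14 further YAP and TAZ targets (right), sorted by their mean change, in the Msi1 (circles), Msi2 (triangles) and double knockdown (squares); filled symbols passed the adjusted threshold of 0.05. SAV1, VGLL4 and AMOTL1 lie lowest on the left with filled symbols in each knockdown, and NUAK2 and FJX1 highest on the right.

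The genes nearest to a member in their course over the 12 libraries were found by the root-mean-square difference of centred log2 CPM, among 9430 tested genes of at least 10 CPM on average (9431 for CTGF). Nearest to CYR61 were LRRC8A, a subunit of the volume-regulated anion channel (difference 0.080), EREG, which encodes the EGF receptor ligand epiregulin (0.082), and TM4SF1 (0.088), where the spread of CYR61 itself was 0.438. EREG averaged 803 ± 88, 758 ± 63 and 744 ± 37 CPM under Msi1, Msi2 and double knockdown and 413 ± 19 CPM in control (SD, n = 3). CTGF was less closely followed, by GANAB, a glucosidase of the endoplasmic reticulum (0.137), ERO1A (0.138) and TOR1B (0.139), on a spread of 0.430. It had 58 to 623 counts per library where CYR61 had 1728 to 18147. The part of counting scatter in the larger difference was not tested. Nearest to WWTR1 were ANKRD13A (0.068), CMIP (0.072) and BAIAP2 (0.072), on a spread of 0.297, and nearest to YAP1 were WDR26 (0.045), C18orf25 (0.049) and DENND6A (0.050), on a spread of 0.132. CMIP averaged 140 ± 5, 87.5 ± 2.5 and 138 ± 8 CPM under Msi1, Msi2 and double knockdown and 93.7 ± 7.4 CPM in control. Among the 9 tested genes themselves, AMOTL2 and LATS2 were the nearest pair (0.063). Both changed little, and genes that change little lie close by this measure whether or not they move together.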

How the data were processed

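RNA sequencing libraries came from 200 ng of total RNA of sorted cells, per the labels' protocols. The authors deposited estimated counts per gene, in whole numbers and unscaled. Per the submitters' processing notes, the tools were CASAVA 1.4 and kallisto 0.42.1 and the build hg19, with no role stated for any of them. Neither the transcript set nor the strand setting is given in the sources used here. Genes were tested with edgeR 4.0.16 (R 4.3.3): filterByExpr by group with a minimum count of 10 left 15021 of 24528 genes, libraries were scaled by TMM, and a robust quasi-likelihood fit with a mean per group used all 12 libraries (8 residual degrees of freedom). Tests were two-sided, with Benjamini-Hochberg adjustment over all tested genes. An exact permutation test of 3 against 3 libraries has p = 0.1 as its smallest value. Intervals are 95% intervals of the fit. The library trend is the first principal component of deviations from group means (9816 genes above 3 log2 CPM with a prior count of 2, 54.5% of the within-group variance), on which every library was scored. Thinned libraries were sampled down to the smallest total. The correction for GC content and length was chosen after seeing the data and used the longest GENCODE 29 transcript, known for 99.2% of tested genes; the stricter filter had a minimum count of 50. DESeq2 1.42.0 was an alternative. Scripts were tested on simulated data. The replicate numbers of the titles were checked for pairing by the correlation of deviations from group means. Same-numbered Msi2 knockdown and control libraries correlated at 0.185 to 0.684, a pattern seen in the data alone. Control replicate 1 nevertheless correlated at 0.214 with Msi2 knockdown replicate 3. In each of the other group pairs at least 1 same-numbered correlation was below 0.1. The main tests used no pairing, and the replicate number as a block was an alternative.

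The members, gene lists and tests were chosen with earlier results of these data known. Named genes were the members, MSI1 and MSI2, up to 4 called genes with the largest rise and 4 with the largest fall per list and comparison with control, and the 3 nearest genes of 4 members.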

Additional observations from a re-analysis of the deposited data

Results flagged for a closer look

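These 3 results stood out because their non-additivity was called (edgeR). Non-additivity takes in any difference of the control group from all knockdowns, along with any effect of the second virus and the sort for both tags. The parts of these were not tested. The change under double knockdown departed from the sum of the single changes by -1.34 for CTGF (adjusted p = 5.7e-06), by -1.05 for CYR61 (4.1e-06) and by -0.43 for AXL (0.00464), with 40.3% of all tested genes departing in one direction or the other. Under 20 alternatives the values ran from -1.47 to -1.22 for CTGF, from -1.14 to -0.73 for CYR61 and from -0.52 to -0.12 for AXL, and the AXL call was lost after adjustment for the library trend (adjusted p = 0.671). The double knockdown libraries lay apart on that trend, and its part in these values was not tested further.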

How the results depend on the processing

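Over the 3 comparisons with control, 375 of 405 values of the members under an alternative kept their direction and their side of the threshold; 17 lost and 4 gained a call, and 9 turned sign, all of them uncalled in both settings. Leaving out 1 library at a time, the values that turned sign ran from -0.0274 to 0.1372 for TEAD4 and -0.0174 to 0.0645 for TEAD1 under Msi1 knockdown, from -0.0427 to 0.016 for WWTR1 and -0.0068 to 0.0234 for AMOTL2 under Msi2 knockdown, and from -0.0709 to 0.0228 for CYR61 in the double against the Msi2 knockdown. After adjustment for the library trend TEAD1 under Msi1 knockdown was -0.0019, WWTR1 under Msi2 knockdown 0.0047, CYR61 0.2144, 0.1851 and 0.0293 in the double against Msi1, double against Msi2 and Msi2 against Msi1 knockdown, and TEAD4 non-additivity -0.1561. With the correction for GC content and length WWTR1 and AMOTL2 under Msi2 knockdown were 0.0275 and -0.0158, and LATS2 under double knockdown 0.0494. The causes were not tested.

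Counts of called genes moved by over 1.5 times as follows. After adjustment for the library trend, the double against the Msi1 knockdown had 759 called genes in place of 8419, 0 in place of 2 members, 3 in place of 16 Hippo genes and 1 in place of 9 targets. The double against the Msi2 knockdown then had 2787 in place of 6792 genes, 1 in place of 3 members, 5 in place of 12 Hippo genes and 3 in place of 9 targets, and non-additivity 648 in place of 6058 genes, 1 in place of 8 Hippo genes and 1 in place of 7 targets. With the correction for GC content and length, 23 in place of 12 Hippo genes passed under double knockdown against control and 5 in place of 2 members in the double against the Msi1 knockdown. Of all called genes in these comparisons, 58.8% and 63.1% were then higher, in place of 51.2% and 53.3%. In the double against the Msi2 knockdown 5 members passed with a stricter filter and 1 with thinned libraries. Leaving out 1 library at a time, the Msi2 knockdown against control had 3013 to 4249 called genes in place of 4545, lowest without control replicate 1. In the double against the Msi2 knockdown 1 to 3 members and 7 to 10 Hippo genes were called, Hippo genes lowest without Msi2 knockdown replicate 2, in the Msi2 against the Msi1 knockdown 2 to 6 members, and in the double against the Msi1 knockdown 5 to 9 targets, lowest without double knockdown replicate 1. Over all tested genes 5058 to 7185, 4841 to 6393 and 6415 to 8876 were called in these comparisons, in the same order.

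Same-numbered libraries of different groups correlated between -0.54 and 0.70 in their deviations, and 7 of 12 libraries correlated best with their own number. Only between the Msi2 knockdown and control were all 3 same-numbered pairs above 0.1. With the replicate number as a block, 6336 genes were called under Msi1, 4970 under Msi2 and 8175 under double knockdown against control, in place of 5907, 4545 and 7796. Against control the block changed no call of a member, MSI1 or MSI2, and no named gene that was called lost its call. It called 6 in place of 5 members in the Msi2 against the Msi1 knockdown, by adding CTGF (-0.25, adjusted p = 0.0307), and 4 in place of 3 for non-additivity, by adding YAP1 (-0.21, 0.0498). Depth, lowest in control replicate 3 at 10948191 counts, limits what can be said of ANKRD1.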
